A study of Mus musculus with 2 samples.

Results

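Nuclei of committing nephrons and renal vesicles were examined in 2 single-nucleus RNA libraries of whole mouse kidney, 1 from embryonic kidneys at E18.5 and 1 from newborn kidneys at postnatal day 3 (P3). The nuclei were chosen by their own counts. A nucleus was a member when at least 3 of 6 marker genes (Wnt4, Lhx1, Fgf8, Dll1, Jag1 and Tmem100) had a unique molecular identifier (UMI, the tag of 1 counted RNA molecule) and at most 1 of 5 genes of other cell types (Flt1, Ptprb, Nphs1, Slc12a1 and Ret) had any. Barcodes entered with 1000 to 6000 UMIs at E18.5 or 1000 to 10000 UMIs at P3, and with at most 0.6% of UMIs from mitochondrial genes. At E18.5, 513 of 18673 kept nuclei were members (2.75%, 2.52 to 2.99%), out of 21600 deposited barcodes. At P3, 463 of 9289 kept nuclei were members (4.98%, 4.55 to 5.45%), out of 12216 barcodes.

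The E18.5 kidneys had the genotype Mycf/f;Mycnf/f (no Cre), that is, floxed Myc and Mycn with no recombinase, on a background labeled mixed. The P3 kidneys were labeled Wild type and C57BL/6J, while the methods of the study describe a mixed background at each age. Kidneys of male and female animals were pooled into 1 library per age, so there was no replicate and no test was made between groups. Age, genotype, background, library and software release changed together and cannot be told apart. The release named in the E18.5 file counts intronic reads by default and the one named in the P3 file does not, so a difference in the reads counted is one of these, and its part in ratios between the libraries was not tested. Levels are given in CPM, the UMIs of a gene summed over the nuclei of a group and scaled to the total UMIs of that group (1997441 UMIs in members at E18.5 and 2710200 at P3). Ranges in parentheses are exact 95% intervals that cover counting error only, since nuclei of 1 library are not replicates.

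New nephrons form when mesenchymal progenitors that cap the ureteric tips are induced by Wnt9b from the ureteric epithelium. The induced cells switch on Wnt4, gather as a pretubular aggregate and become an epithelial vesicle, which then elongates into the comma- and S-shaped bodies from which podocytes, proximal tubule, loop and distal tubule arise. Fgf8 keeps the induced cells alive and Lhx1, a LIM homeodomain factor, acts in the same step, while Notch signaling from Dll1 and Jag1 favors proximal fates.

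The rule selected on its own 6 markers, so their levels are a description. All 6 are protein-coding genes in the GRCm38 annotation. Wnt4 (chr4:137277489-137299726), the secreted inducer of the epithelial transition, measured 286 CPM (263 to 310) in members and 66.1 CPM in the other kept nuclei at E18.5, and 345 CPM (323 to 368) and 61.6 CPM at P3. Lhx1 (chr11:84518284-84525535) measured 470 CPM (441 to 501) in members at E18.5 and 536 CPM (509 to 564) at P3, against 63.9 and 54.1 CPM in other nuclei. The level of Jag1 (chr2:137081456-137116644), a Notch ligand, was 389 CPM (363 to 418) in E18.5 members and 391 CPM (368 to 416) in P3 members, against 64.0 and 69.0 CPM elsewhere. These 3 genes carried most memberships, and the combination of Wnt4, Lhx1 and Jag1 with no further marker accounted for 154 of 513 members at E18.5 and 165 of 463 at P3.

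Dll1 (chr17:15367354-15376872), another Notch ligand, measured 131 CPM (115 to 148) in members at E18.5 and 60.1 CPM (51.3 to 70.1) at P3. Fgf8 (chr19:45736798-45742915) measured 51.1 CPM (41.6 to 62.0) and 28.0 CPM (22.1 to 35.1). The P3 to E18.5 ratio was 0.460 (0.376 to 0.562) for Dll1 and 0.549 (0.403 to 0.746) for Fgf8. Tmem100 (chr11:90030348-90036508), a small membrane protein, measured 90.1 and 94.1 CPM with a ratio of 1.04 (0.859 to 1.27), but its ratio was 2.60 (1.81 to 3.84) without the clusters of members that had markers of other classes raised by the wider of 2 criteria given further on. The wider criterion also leaves out P3 cluster 6, with 40 of the 76 Fgf8 UMIs at P3 (52.6%). E18.5 cluster 10, left out as well, held 23 of 102 (22.5%). The rule selected on these genes and each age had 1 library, so the values are a description and no difference between the ages is read from them. A UMI of Dll1 was seen in 38.8% of members at E18.5 and 24.6% at P3, with medians of 3826 and 5869 UMIs. After thinning each nucleus to 1000 UMIs the shares were 13.8% and 6.26%. Leukocytes should lack the gene. In nuclei with a UMI of at least 3 of 6 leukocyte genes (197 at E18.5 with a median of 2653 UMIs, and 220 at P3 with 3173), the thinned Dll1 shares were 1.52% and 0.455%, and since the rule selected on Dll1, the gap to members is a description.

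As the only window with a match to the cores searched, among the marker genes with a promoter entry, the 250 bases before the upstream RefSeq start of Dll1 are printed, 5′ to 3′ on the minus strand of GRCm38.p6, chr17:15376933-15377182. The window lies upstream of the annotated gene and inside an exon of the noncoding gene A930024N18Rik, which runs on the plus strand. Capitals mark the only match to the searched cores, CTTTGA or CTTTGT of TCF/LEF (the nuclear factors of Wnt signaling) and TGGGAA of RBPJ (the nuclear factor of Notch signaling), on either strand.

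Dll1 upstream start: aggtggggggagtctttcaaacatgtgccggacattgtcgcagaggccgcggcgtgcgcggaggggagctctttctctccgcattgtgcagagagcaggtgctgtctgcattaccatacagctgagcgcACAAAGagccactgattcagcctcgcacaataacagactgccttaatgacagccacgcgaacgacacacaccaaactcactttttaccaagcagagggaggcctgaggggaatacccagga

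The match, ACAAAG, is CTTTGT read on the other strand and begins 121 bases before the start. Of 32851 promoter entries of the same 250 bases, 27.6% held a TCF/LEF core and 21.6% an RBPJ core. The entries for Wnt4, Lhx1, Jag1 and the other Dll1 start held neither, which says only that these letters are not in these windows. Fgf8 and Tmem100 had no entry.

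Members were deeper than the other kept nuclei. The median was 3826 UMIs in members and 2940 in other kept nuclei at E18.5, and 5869 and 4248 at P3. Most members sat at the edge of the rule: 404 of 513 at E18.5 and 358 of 463 at P3 had exactly 3 markers, and 118 (23.0%) and 44 (9.50%) had only 3 marker UMIs. Of the leukocyte reference nuclei, 1 of 197 met the rule at E18.5 (0.508%, 0.0129 to 2.80) and 5 of 220 at P3 (2.27%, 0.742 to 5.22). The same share was taken over kept nuclei with a UMI of at least 3 markers of another class, sets that overlap and hold members themselves. At E18.5 the shares were 2.60% for podocyte, 2.27% for stroma, 3.48% for proximal tubule, 2.60% for erythroid, 3.94% for ureteric epithelium and 4.65% for distal and loop markers, beside 2.75% of all kept nuclei. At P3 they were 6.48% for podocyte, 3.97% for stroma, 4.14% for proximal tubule, 4.98% for ureteric epithelium and 6.23% for distal and loop markers, beside 4.98% of all kept nuclei, and 12 of 117 nuclei (10.3%, 5.41 to 17.2) with erythroid markers met the rule. Endothelial markers, of a lineage the rule excludes on, gave 0.769% and 0.908%. A doublet caller marked 87 members at E18.5 (17.0%, against 12.7% of other nuclei) and 79 at P3 (17.1% against 10.5%). When every nucleus was thinned to 1000 UMIs before the rule, 45 nuclei met it at E18.5 (0.241% of kept nuclei) and 43 at P3 (0.463%). With the same limits of 1000 to 6000 UMIs in each library, the share at P3 was 3.49% (3.07 to 3.95) instead of 4.98%. The libraries shared 52 kept barcodes, and no member was among them.

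From 0 to 4 markers detected, several genes the rule did not use were higher with each further marker. Pax8, a paired-box factor of the early nephron, measured 168, 246 and 411 CPM in E18.5 nuclei with 0, 1 and 2 markers, then 619 CPM at 3 markers and 819 CPM at 4. The P3 series was 227, 295, 548, 974 and 1380 CPM. The summed level of this gene was thus intermediate in the 1599 nuclei at E18.5 and the 888 at P3 just outside the rule, which had 2 markers. Whether single nuclei were intermediate or the groups were mixtures was not tested, and the steps count the rule's own markers. Lama1 measured 322 CPM (298 to 347) at 3 markers and 299 CPM (254 to 351) at 4 at P3, so it was not higher there. Greb1, a steroid-responsive cofactor gene, went from 15.6 CPM with no marker to 79.1 CPM at 2, 174 CPM at 3 and 322 CPM at 4 markers at E18.5, and from 11.8 to 68.5, 141 and 243 CPM at P3. Nuclei with 5 markers were few, 9 at E18.5 and 18 at P3, and their intervals were wide. There the E18.5 levels were 769 CPM (515 to 1105) for Pax8, 265 CPM (127 to 488) for Greb1 and 531 CPM (324 to 819) for Cdh6, each below the level at 4 markers, and the P3 levels were 1764, 429 and 1359 CPM, each above it. Eya1, a transcriptional cofactor of progenitors, went the other way at E18.5, from 362 CPM at 0 markers to 264 CPM at 4, and peaked at 545 CPM at 3 markers at P3. Six2, the factor that maintains progenitors, stayed between 7.27 and 10.8 CPM over 0 to 4 markers at E18.5 and at or below 3.40 CPM at P3. Median depth also rose with the number of markers, from 2741 UMIs at 0 to 4132 at 4 at E18.5 and from 3770 to 6092 at P3, and its part in these steps was not tested.

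**Figure D1:**
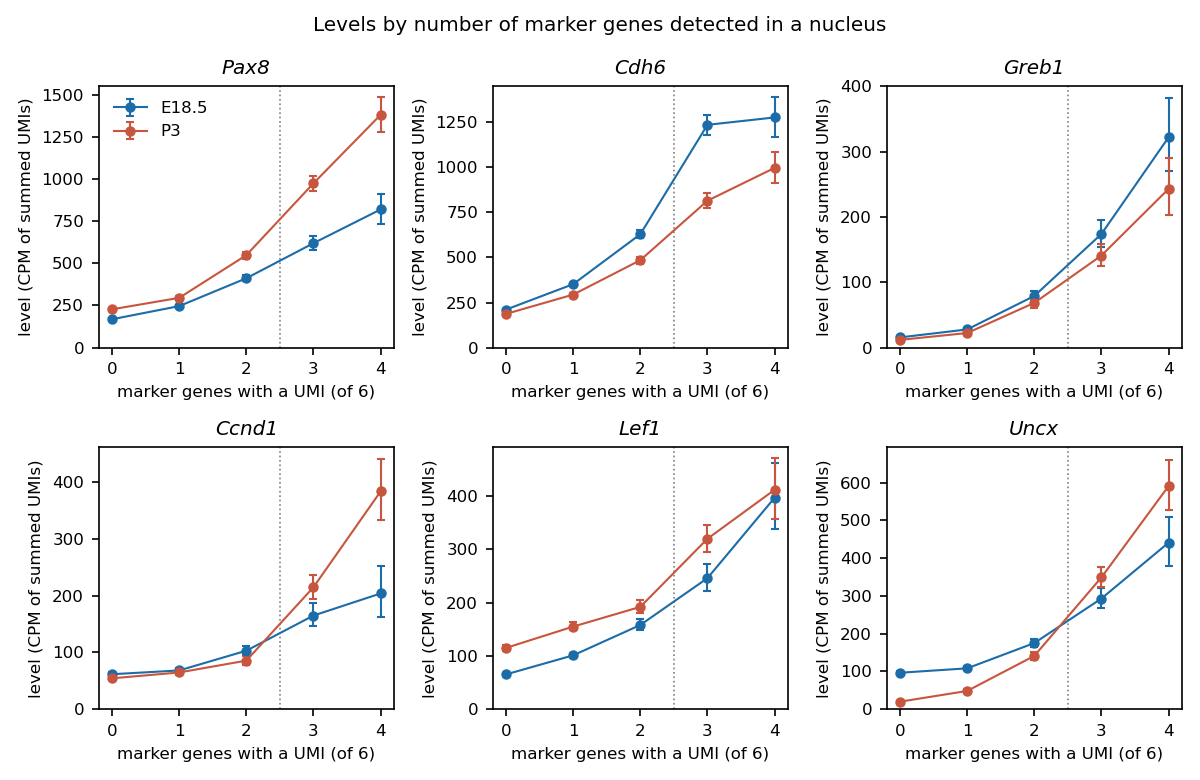
Level (CPM of summed UMIs, vertical axes from 0) of 6 genes outside the rule in nuclei with 0 to 4 of the 6 marker genes detected (horizontal axes) and at most 1 exclusion gene, without the few nuclei with more markers, at E18.5 (blue) and P3 (red). Bars are exact 95% Poisson intervals, and members lie to the right of the dotted line; Pax8 at P3 went from 227 CPM at 0 markers to 1380 CPM at 4.

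Against all other kept nuclei of their library, members were at least 2-fold higher for 121 of 11588 genes at E18.5 (1.04%) and lower for 147 (1.27%), with 10 CPM added to each level and at least 10 CPM required in either group. At P3, 254 of 11261 genes were higher (2.26%) and 370 lower (3.29%). Since these are the nuclei the rule selected on, the counts are a description. The libraries shared 84 higher genes, 69.4% of the E18.5 and 33.1% of the P3 genes, and 110 lower genes, 74.8% and 29.7%. No gene passed 2-fold in opposite directions. The median gene did not shift, at 0.01 and 0.03 on the log2 scale.

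**Figure D2:**
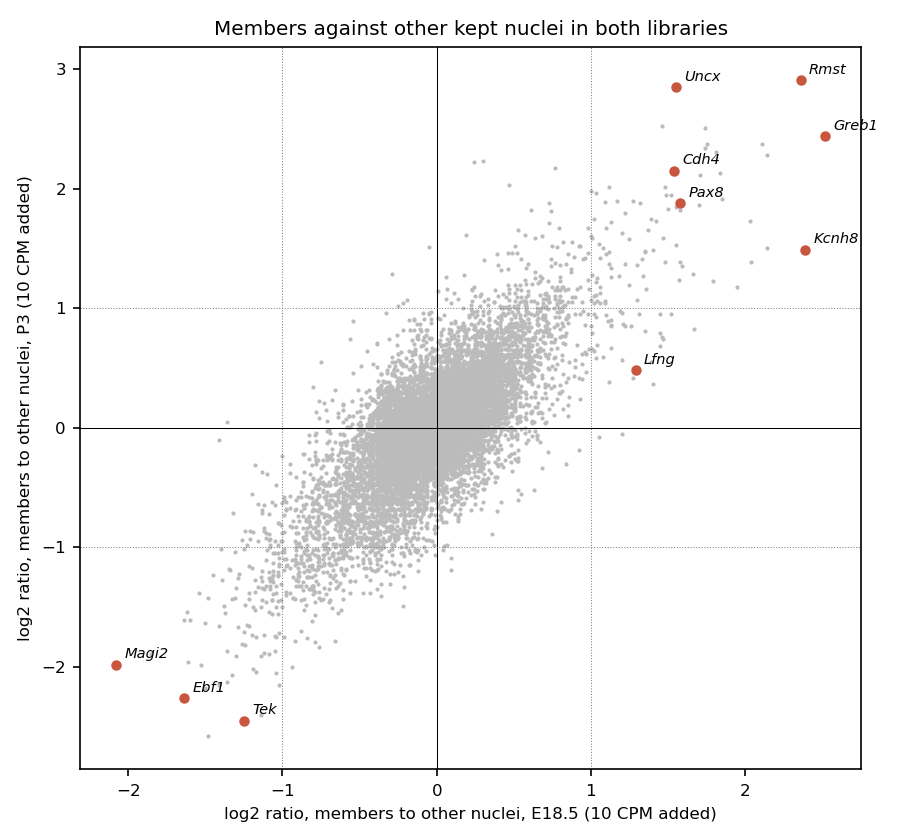
Log2 ratio of members to other kept nuclei at E18.5 (horizontal) and P3 (vertical), with 10 CPM added, for every gene that reached 10 CPM in a compared group. Each gray point is a gene, red points are named, and dotted lines mark 2-fold; Greb1 and Rmst lie far up in both libraries and Magi2 and Ebf1 far down.

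Renal vesicle genes outside the rule, a list of 18, had a summed level that was higher in members than in other nuclei at each age. At E18.5, 11 of the 16 genes that could be counted passed 2-fold and none fell past it, with a median log2 ratio of 1.17 against 0.01 for all genes. The summed level of the list was 3935 CPM in members and 1321 CPM in others, a ratio of 2.98 (2.91 to 3.05). At P3, 7 of 14 genes passed, the median was 0.96, and the sums were 4596 and 1481 CPM with a ratio of 3.10 (3.04 to 3.16). Against other nuclei weighted to the depth of the members, the ratios were 2.78 and 2.96. Cdh6, Pax8 and Cdh4 held 2454, 1328 and 1072 of the 7860 UMIs of the list in E18.5 members. At P3 they held 2370, 2954 and 3311 of 12457. The rule selected on markers of the same stage, and the list was chosen with earlier results of these data known, so these ratios are a description.

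Pax8 stood at 665 CPM in E18.5 members and 216 CPM in other nuclei, and at 1090 and 289 CPM at P3. Cdh6, a cadherin of the early tubule, measured 1229 against 293 CPM at E18.5 (4.20-fold, 4.02 to 4.38) and 874 against 257 CPM at P3 (3.40-fold, 3.25 to 3.56). Cdh4, another cadherin of the vesicle, measured 537 against 178 CPM and 1222 against 267 CPM. Greb1 measured 206 against 27.8 CPM at E18.5 (7.42-fold, 6.64 to 8.27) and 174 against 24.0 CPM at P3 (7.24-fold, 6.48 to 8.10). Ccnd1, which encodes cyclin D1, measured 176 against 69.8 CPM and 252 against 65.5 CPM. These 5 genes passed 2-fold in each library. Sox9, Npy, Dkk1 and Bmper passed 2-fold in neither library, and Npy was below 10 CPM throughout.

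**Figure D3:**
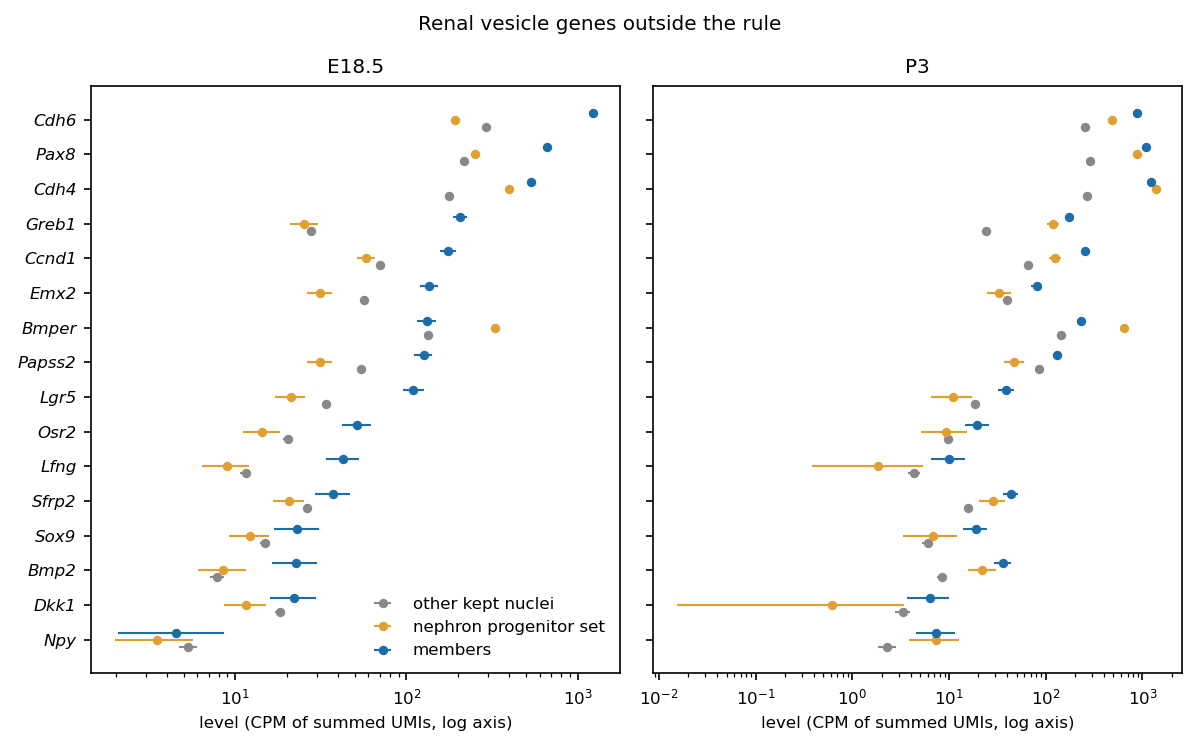
Levels (CPM of summed UMIs, log axes) of 16 renal vesicle genes outside the rule in members (blue), the nephron progenitor set (orange) and other kept nuclei (gray), at E18.5 (left) and P3 (right), with exact 95% Poisson intervals. Cdh6 in members is at 1229 CPM at E18.5 and 874 CPM at P3, and the gap between members and the progenitor set is narrower at P3 for Pax8, Greb1 and Cdh6.

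Of 14 nephron progenitor genes, 2 of 10 counted genes passed 2-fold up at E18.5 and 4 of 8 at P3, with median log2 ratios of -0.08 and 1.09. Sall1, a zinc finger factor gene, measured 217 against 94.6 CPM at E18.5 and 235 against 51.0 CPM at P3, and Uncx also passed in each library. Eya1 passed at P3 only, with 509 against 202 CPM, and its E18.5 ratio was 0.814 (0.745 to 0.888). Six2 measured 9.01 against 9.67 CPM at E18.5 and 2.58 against 1.75 CPM at P3, so it was near its level in other nuclei.

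The Notch list of 18 genes had 12 genes counted at E18.5, of which 3 passed 2-fold up: Lfng, which glycosylates Notch receptors and measured 42.6 against 11.5 CPM, and the target genes Hes5 (27.5 against 5.59 CPM) and Hey1 (25.0 against 7.51 CPM). At P3, 3 of 11 passed: Hey1 (19.9 against 4.25 CPM) and the receptors Notch1 (108 against 42.7 CPM) and Notch2 (354 against 163 CPM). The list medians were 0.47 and 0.44 on the log2 scale. Rbpj was near its level elsewhere, at 122 against 112 CPM and 133 against 127 CPM.

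Of the Wnt list, 2 of 25 counted genes passed at E18.5 and 3 of 22 at P3, with medians of 0.01 and 0.19. Lef1, a nuclear effector of Wnt signaling, measured 283 against 87.6 CPM (3.24-fold, 2.96 to 3.53) and 351 against 132 CPM (2.66-fold, 2.48 to 2.85). Lgr5, an R-spondin receptor, measured 110 against 34.1 CPM at E18.5 and 39.1 against 18.4 CPM at P3, where it did not pass. Fzd3 and Rspo1 passed at P3. Ctnnb1, which encodes β-catenin, did not differ by 2-fold, with 224 against 230 CPM and 153 against 144 CPM.

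Over all counted genes, 1.04% passed 2-fold up at E18.5 and 2.26% at P3, which the counts of this paragraph can be set beside. In the FGF list, with 13 genes counted at each age and medians of 0.35 and 0.45, Fgf10 and the receptor gene Fgfr1 passed in each library. Etv4, a target of receptor signaling, passed at P3. Fgfr1 measured 368 against 179 CPM at E18.5 and 515 against 163 CPM at P3. No gene of the BMP list passed among 15 counted at E18.5, and Bmp2 and Bmp7 passed among 15 at P3. In the list for epithelial adhesion and polarity, Cdh4 and Cdh6 passed at E18.5 among 17 counted genes, and Cdh2 with them at P3 among 15, while Cdh1, the cadherin of mature epithelium, measured 75.1 against 61.2 CPM and 38.0 against 56.8 CPM. None of 26 S phase and 38 G2 and M phase genes passed at E18.5, although their summed levels were 1.42-fold (1.38 to 1.47) and 1.36-fold (1.33 to 1.39) those of other nuclei. At P3, 4 of 25 and 7 of 38 passed, and the sums were 1.95-fold and 1.89-fold. Top2a, a topoisomerase of dividing cells, measured 415 against 248 CPM at E18.5 and 339 against 139 CPM at P3.

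Among genes with at least 50 CPM in either group, ranked by ratio with 10 CPM added, Greb1, Kcnh8 and Rmst led at E18.5, and Rmst, Uncx and Alk at P3. Rmst, a long noncoding RNA, measured 475 against 84.5 CPM (5.62-fold, 5.23 to 6.02) and 828 against 101 CPM (8.18-fold, 7.76 to 8.61). Kcnh8, a potassium channel gene, measured 124 against 15.5 CPM at E18.5 (7.98-fold, 6.90 to 9.21). Uncx, a homeobox gene of the nephron lineage, measured 324 against 104 CPM at E18.5 and 410 against 48.2 CPM at P3. Alk, a receptor tyrosine kinase gene, measured 87.4 against 7.05 CPM at P3 (12.4-fold, 10.4 to 14.8). Plpp4, Lhx1os, Gm13415, Ptprt, Il17rd, Lrp4 and Hs3st3b1 were among the 15 highest in each library. Lrp4 encodes a receptor of the LDL receptor family and Il17rd an inhibitor of FGF signaling. Lhx1os, a noncoding gene, runs away from Lhx1 on the opposite strand with 124 bases between them and no overlap, so it neighbors a gene of the rule. Gm13415 overlaps Pax8 on the opposite strand, and without a stated use of strand in counting the reads of that pair cannot be assigned with certainty.

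The lowest genes by the same ranking were Magi2, Fli1 and Ebf1 at E18.5 and Emcn, Tek and Adgrl4 at P3. Magi2, a podocyte scaffold gene, measured 567 against 2428 CPM at E18.5 and 462 against 1846 CPM at P3. Ebf1, a stromal factor, measured 233 against 746 CPM and 221 against 1099 CPM. The 9 endothelial markers summed to 0.361 of their level in other nuclei at E18.5 (5 passed 2-fold down) and 0.148 at P3 (all 9 passed). The endothelial and podocyte values are in part set by the rule, which excludes on Flt1, Ptprb and Nphs1. Podocyte markers summed to 0.372 and 0.475 of their level elsewhere, with 3 and 6 of 10 lower past 2-fold, and stromal markers to 0.494 and 0.403, with 4 of 10 and 2 of 9 lower. Proximal tubule markers summed to 0.636 at E18.5, with none of 10 past 2-fold, and to 0.392 at P3, with 6 of 10 lower. Leukocyte markers summed to 0.322 and 0.239, and Ptprc, which every leukocyte carries, measured 3.0 against 16.1 CPM and 4.43 against 19.7 CPM. The other lists differed less. Distal and loop markers stood at 1.01 and 0.805, with Sim1 past 2-fold up at E18.5, and ureteric markers at 1.49 and 1.13. Erythroid transcripts stood at 0.775 and 0.858.

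The members were also set beside nuclei with at least 3 of 6 nephron progenitor genes (Six2, Cited1, Eya1, Meox1, Uncx and Dpf3) that were not members, 1228 at E18.5 and 280 at P3. The progenitor sets of the libraries were not alike. At E18.5 the set held 47.4 CPM of Six2 and 67.0 CPM of Cited1, another gene of uninduced progenitors, and 62.8 CPM of Wnt4, close to the 66.1 CPM of other nuclei. At P3 it held 23.9 CPM of Six2, 4.90 CPM of Cited1 and 240 CPM of Wnt4, and 53.9% of its nuclei had a Wnt4 UMI against 11.4% of leukocyte reference nuclei. The P3 set rested on Eya1, Uncx and Dpf3, so the label of progenitor holds less well there.

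At E18.5, members exceeded the progenitor set by 2-fold for 217 of 11432 genes (1.90%) and were below it for 122 (1.07%). At P3 the counts were 102 of 11018 (0.926%) and 58 (0.526%). The rule of the members excludes on Flt1 and Ptprb and that of the progenitor set does not. Among genes with at least 50 CPM in either group, ranked with 10 CPM added, the lowest at P3 were Tek, Emcn and Cyyr1. The endothelial markers summed at P3 to 0.258 (0.225 to 0.297) of their level in the set, with 6 of 9 lower past 2-fold. Of the renal vesicle genes, 10 of 16 passed up at E18.5 and 4 of 14 at P3. Greb1 was 8.18-fold higher (6.64 to 10.1) than in the E18.5 set but 1.46-fold (1.23 to 1.73) higher than in the P3 set. Cdh6 was 6.35-fold and 1.81-fold higher, and Pax8 2.63-fold and 1.25-fold. Lef1 passed 2-fold in each library, at 5.41-fold (4.64 to 6.31) and 2.18-fold (1.90 to 2.51). Bmper, an antagonist of BMPs, was lower in members, with 132 against 329 CPM and 230 against 646 CPM. Of 7 counted progenitor genes that did not define the set, Crym, Osr1, Itga8 and Spock2 were lower past 2-fold at E18.5, and at P3 only Spock2 was, of 6. Itga8, the integrin that receives nephronectin from the bud, measured 197 against 825 CPM at E18.5 and 401 against 550 CPM at P3. Sim1 measured 424 against 56.5 CPM and 280 against 92.5 CPM. Among the members themselves, 63 of 513 at E18.5 and 97 of 463 at P3 also met the progenitor rule.

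Beside nuclei with at least 3 of 6 distal nephron precursor genes (Sim2, Tfap2b, Pou3f3, Irx1, Irx2 and Emx1; 258 at E18.5 and 252 at P3), members were high for Rmst, with 475 against 51.0 CPM at E18.5 and 828 against 62.5 CPM at P3. Tenm2 was low in members, with 216 against 1932 CPM and 144 against 1628 CPM. Slc12a1, the loop cotransporter gene on which the rule excludes, measured 3163 CPM in that set at E18.5 and 6437 CPM at P3, against 130 and 184 CPM in members. Lgr5 was lower in members, at 110 against 263 CPM and 39.1 against 91.2 CPM.

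The members were not of 1 kind. When they were clustered without the 11 genes of the rule, the E18.5 members fell into 10 clusters and the P3 members into 9, here named by number and leading genes. A marker was called raised with at least 10 UMIs in a cluster and at least 2-fold the level of the remaining members, with 10 CPM added to each. The share of all genes raised in each cluster was not taken, so counts of raised markers have no background beside them. In 4 clusters of each library at least 3 markers of the endothelium, stroma, leukocyte, ureteric epithelium or proximal tubule lists were raised, and these held 206 members at E18.5 (40.2%) and 144 at P3 (31.1%). The podocyte and distal lists were not part of this criterion, which was set after the values were seen, although proximal tubule, like podocytes and distal tubule, arises from the vesicle. They would add E18.5 cluster 2 (72 nuclei, 3 podocyte markers), E18.5 cluster 10 (33 nuclei, 4 distal markers) and P3 cluster 6 (64 nuclei, 3 distal markers), for 311 members (60.6%) and 208 members (44.9%). The label of committing nephron and renal vesicle therefore holds for a portion of the members only, and how large a portion depends on this choice. At E18.5, cluster 1 (27 nuclei) was led by the endothelial receptor gene Tek, at 405 CPM against 14.0 CPM in the remaining members, with the macrophage gene Mrc1 also among its leading genes. Cluster 6 (68 nuclei) had 5 stromal markers raised, and 63.2% of it was called as doublets. Cluster 7 (42 nuclei) was counted for 4 raised ureteric markers and also had 3 distal markers raised. Its distal and loop list stood at 5023 against 1240 CPM, and the distal tubule cotransporter gene Slc12a3 at 522 against 29.1 CPM. Cluster 8 (69 nuclei) had 8 of 10 proximal tubule markers raised, with Lrp2, which encodes megalin, at 959 against 114 CPM, and 11.6% of it was called as doublets. At P3 the clusters counted were cluster 1 (36 nuclei, 9 proximal tubule markers, 69.4% called as doublets), cluster 3 (38 nuclei, 4 ureteric markers, 28.9% called), cluster 5 (36 nuclei, 5 stromal markers, 86.1% called) and cluster 7 (34 nuclei, 6 stromal markers, 23.5% called). P3 cluster 3 was led by Slc4a9, at 559 against 4.43 CPM, with Atp6v0d2 and Slc26a4, genes of intercalated cells, and Slc12a3, at 554 against 15.7 CPM, also among its leading genes. That cluster also had 4 distal and 3 podocyte markers raised, with the distal and loop list at 4483 against 1130 CPM. No P3 cluster had 3 endothelial markers raised. Cluster 9 at P3, with 15 nuclei, had the leukocyte genes Runx1, Myo1f and Adgre1 among its leading genes. Its leukocyte list stood at 836 against 30.9 CPM, but of the list only Adgre1 was raised, so it is not among the clusters counted. The P3 to E18.5 ratio of the leukocyte list was 1.23 (0.921 to 1.65) in all members. It was 2.90 (1.79 to 4.91) and 4.13 (2.19 to 8.61) without the clusters of the narrower and wider criterion.

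Some of the remaining clusters had leading genes in common between the libraries. Cluster 10 at E18.5 (33 nuclei) and cluster 6 at P3 (64 nuclei) each had Kcnh8, Rmst and Prdm16 among their leading genes, with 747 and 392 CPM of Kcnh8. The P3 cluster held 69.1% of the Kcnh8 UMIs of all P3 members, 63.3% of those of Rmst and 63.3% of those of Alk. They held the highest Fgf8 levels of their libraries, 193 and 105 CPM, with Lhx1 at 764 and 925 CPM and the distal factor Sim1 raised. Cluster 9 at E18.5 (38 nuclei) and cluster 2 at P3 (49 nuclei) shared Pcsk2, a prohormone convertase gene, at 395 and 190 CPM. They held the highest Dll1 levels, 292 and 204 CPM, with Jag1 at 621 and 514 CPM and Tmem100 at 7.31 and 3.65 CPM. None of the nuclei in these 4 clusters was called as a doublet.

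Cluster 3 at E18.5 (60 nuclei) and cluster 8 at P3 (87 nuclei) shared the leading genes Eya1, Bmper and Snap91, with Eya1, the cofactor of Six2, at 1171 and 1735 CPM. In them 38.3% and 33.3% of nuclei also met the progenitor rule, Tmem100 measured 123 and 265 CPM, Wnt4 310 and 499 CPM, and Dll1 55.6 and 8.15 CPM. Of the E18.5 cluster 20.0% (12 nuclei) was called as doublets, and of the P3 cluster 0%. Others could not be paired in this way. Cluster 5 at E18.5 (62 nuclei) and cluster 4 at P3 (104 nuclei, the largest of its library) had high Lhx1, at 812 and 962 CPM, with Uncx raised, but no leading gene in common. The first was led by Alk and Rmst, which were also leading genes of P3 cluster 6, and the second by Trim9, with Ccnd1 at 590 against 166 CPM. Cluster 4 at E18.5 (42 nuclei) held the highest Wnt4 of its library, 514 CPM, with the Notch target Heyl among its leading genes. Cluster 2 at E18.5 (72 nuclei) was led by Ndnf, also a leading gene of P3 cluster 4, and held Wt1, the podocyte and progenitor factor, at 1396 against 216 CPM, Magi2 at 1951 against 339 CPM and the highest Tmem100 of its library, 297 CPM. The neighboring noncoding gene Wt1os, on the opposite strand and not overlapping Wt1, was also among its leading genes. The pairings are by shared leading genes, and the clusters were not matched by a test.

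**Figure D4:**
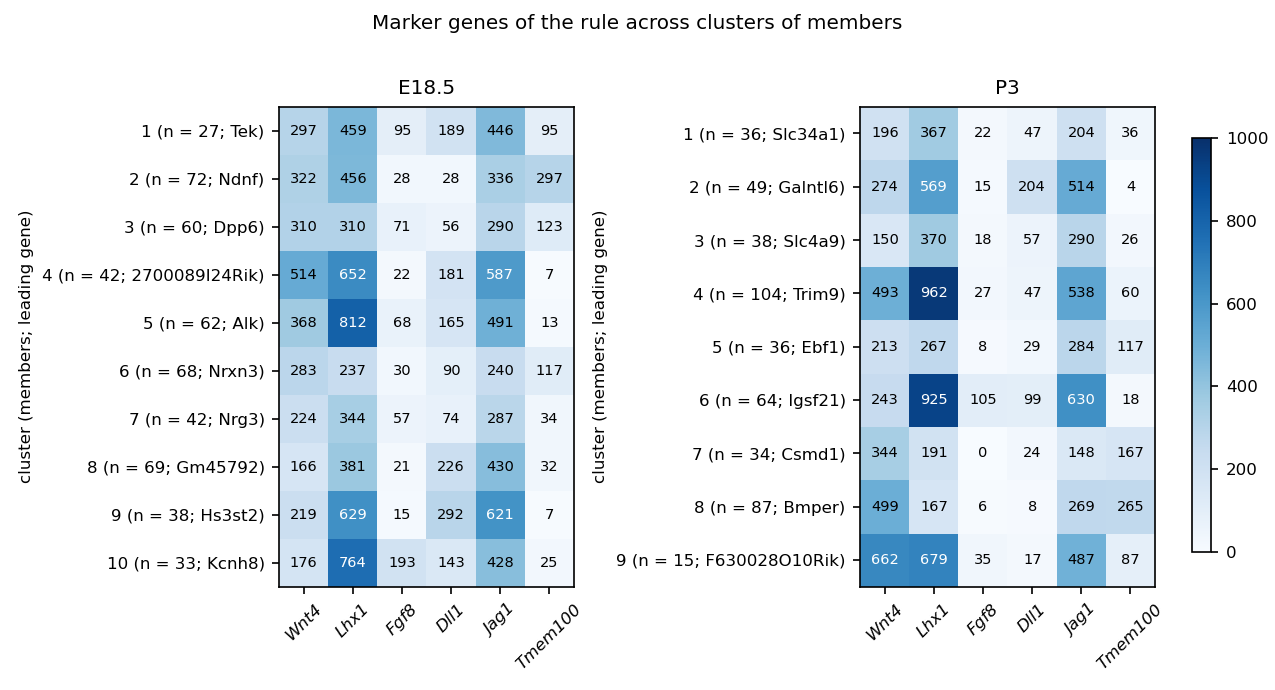
Level (CPM of summed UMIs, color and printed value) of the 6 marker genes in each cluster of members at E18.5 (left, 10 clusters) and P3 (right, 9 clusters), with the number of members and the leading gene of each cluster. Fgf8 is highest in E18.5 cluster 10 (193 CPM) and P3 cluster 6 (105 CPM), and Tmem100 in E18.5 cluster 2 (297 CPM) and P3 cluster 8 (265 CPM).

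With the 8 clusters of the narrower criterion left out, 307 members remained at E18.5 and 319 at P3. The summed ratio of renal vesicle genes to other nuclei was then 3.48 at E18.5 and 3.88 at P3, and 213 and 492 genes were at least 2-fold higher. With the wider criterion 202 and 255 members remained, the ratios were 3.70 and 3.81, and 238 and 495 genes were higher. Pax8, Cdh6, Greb1, Lama1, Lef1, Uncx, Cdh4 and Rmst remained higher in members than in other nuclei in each library under either criterion. Several of these genes were among the highest in the comparison of all members, so this is a description.

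Between the libraries, members at P3 were at least 2-fold higher than members at E18.5 for 128 of 11406 genes (1.12%) and lower for 374 (3.28%). The kept nuclei outside the group moved as well. In those other nuclei 195 genes were higher and 520 lower past 2-fold. Of the 128 genes higher in members, 62 (48.4%) also passed 2-fold in the other nuclei, and of the 374 lower genes, 301 did (80.5%). Ribosomal protein genes made up 76 of the lower genes, and their summed level was 46292 CPM in E18.5 members and 15529 CPM in P3 members, a ratio of 0.335 (0.332 to 0.339), beside 0.235 in other nuclei. Of 5 counted erythroid genes 4 were lower, with the hemoglobin gene Hbb-bs at 395 and 52.8 CPM in members and a ratio of 0.134 (0.111 to 0.160), beside 0.135 in other nuclei. Red cells do not belong to the nephron, and the part of free RNA in these values was not tested.

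Of the renal vesicle genes, Cdh4 alone was higher past 2-fold at P3, at 1222 against 537 CPM (2.28-fold, 2.12 to 2.44), and Lfng, Osr2 and Lgr5 were lower. Lfng went from 42.6 to 9.96 CPM (ratio 0.234, 0.146 to 0.365), and in other nuclei from 11.5 to 4.35 CPM. Hes5 went from 27.5 to 4.06 CPM. Lgr5 went from 110 to 39.1 CPM (ratio 0.355, 0.279 to 0.450), and its level in other nuclei, given above with the Wnt list, was also lower at P3. Osr2, an odd-skipped factor gene, went from 51.6 to 19.6 CPM. Cited1 went from 23.5 CPM to 0.738 CPM, the latter from 2 UMIs. The summed progenitor list measured 1270 CPM at E18.5 and 1802 CPM at P3 in members (ratio 1.42, 1.35 to 1.49), mostly through Eya1, at 264 and 509 CPM, and Itga8, at 197 and 401 CPM. Without the clusters of the wider criterion the ratio of Itga8 was 1.15 (0.973 to 1.37) and that of Eya1 1.82 (1.62 to 2.07). In other nuclei the same sum went from 1151 to 952 CPM (ratio 0.827, 0.817 to 0.838). The endothelial markers summed to 213 and 108 CPM in members (ratio 0.510, 0.438 to 0.593) and to 589 and 731 CPM in other nuclei, with none of 7 counted genes past 2-fold in members. The 27 nuclei of E18.5 cluster 1 held 30.1% of these UMIs at E18.5, and the ratio was 0.711 (0.566 to 0.893) and 0.720 (0.548 to 0.949) without the clusters of each criterion. Cell cycle genes were 0.944-fold (S phase) and 0.846-fold (G2 and M phase) in members, beside 0.691-fold and 0.607-fold in other nuclei. The S phase ratio was 0.990 (0.942 to 1.04) without the clusters of the narrower criterion and turned to 1.04 (0.981 to 1.10) without those of the wider, and the G2 and M phase ratio was 0.925 and 0.932.

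Among genes with at least 50 CPM in either group, ranked by ratio with 10 CPM added, 2410018L13Rik, Gm19951 and Kcnd2 were highest at P3. Without that addition 9030624G23Rik (9.05-fold), Htr1f (8.79-fold) and Pck1 (7.02-fold) stood above Kcnd2. Kcnd2, a potassium channel gene, went from 146 to 924 CPM in members (6.32-fold) and 3.59-fold in other nuclei, but 80.5% of its UMIs in P3 members came from cluster 7 (34 nuclei, 6 stromal markers raised), at 9639 CPM against 195 CPM in the remaining P3 members. At E18.5, 78.1% came from cluster 6 (68 nuclei, 5 stromal markers raised), at 760 against 37.7 CPM. Without the clusters of the narrower criterion Kcnd2 stood at 23.2 and 126 CPM. Pck1, a gluconeogenic enzyme of proximal tubule, went from 13.5 to 94.8 CPM in members and 9.37-fold in other nuclei. The proximal tubule markers summed to 647 CPM in E18.5 members and 1074 CPM in P3 members, with Slc34a1, Slc5a12 and Ass1 past 2-fold. The 36 nuclei of P3 cluster 1, of which 69.4% were called as doublets, held 66.2% of the list's UMIs, 72.6% of those of Slc34a1 and 59.1% of those of Pck1. The remaining P3 members stood at 404 CPM for the list and 103 CPM for Slc34a1, below the 647 and 143 CPM of all E18.5 members. Outside E18.5 cluster 8, which held 50.6% of the list's UMIs there, the E18.5 level was 373 CPM. Without the clusters of the narrower criterion the list stood at 352 and 432 CPM (ratio 1.23, 1.09 to 1.39) and Slc34a1 at 89.2 and 104 CPM (ratio 1.17, 0.911 to 1.5). The following genes, whose ratio in members differed by at least 2-fold from that in other nuclei, were chosen after their values were seen. Rbfox1, an RNA splicing factor gene, went from 661 to 1354 CPM in members (2.05-fold, 1.92 to 2.18) but was 0.683-fold in other nuclei. Lsamp, a cell adhesion gene, was 2.55-fold in members and 1.03-fold in others. Alk was 2.46-fold and 1.08-fold, and Dkk2, a Wnt antagonist gene, 3.48-fold and 1.09-fold. Gm20528 was lower in members, at 0.310, and 0.804 in others. Most of these ratios are of sums that single clusters dominate, and the make-up of the members differed between the libraries. P3 cluster 8, with 18.8% of members, held 60.5% of the Lsamp and 59.8% of the Dkk2 UMIs. At E18.5, cluster 3, with 11.7% of members, held 54.0% of the Lsamp UMIs, and cluster 2 55.0% of those of Dkk2. Lsamp measured 230 CPM in the P3 members outside cluster 8 and 98.5 CPM in the E18.5 members outside cluster 3. Alk came mostly from cluster 5 at E18.5 (56.3%) and cluster 6 at P3 (63.3%), and its ratio was 2.18 without the clusters of the narrower criterion but 0.634 (0.436 to 0.924) without those of the wider, which leaves out the latter cluster and not the former. Gm20528 came to 52.2% from the proximal tubule cluster 8 at E18.5, and its ratio was 0.534 without the clusters of the narrower criterion. Rbfox1 was less concentrated, with at most 37.0% of its UMIs in 1 cluster, and its ratio was 1.91 and 1.84 by these criteria.

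**Figure D5:**
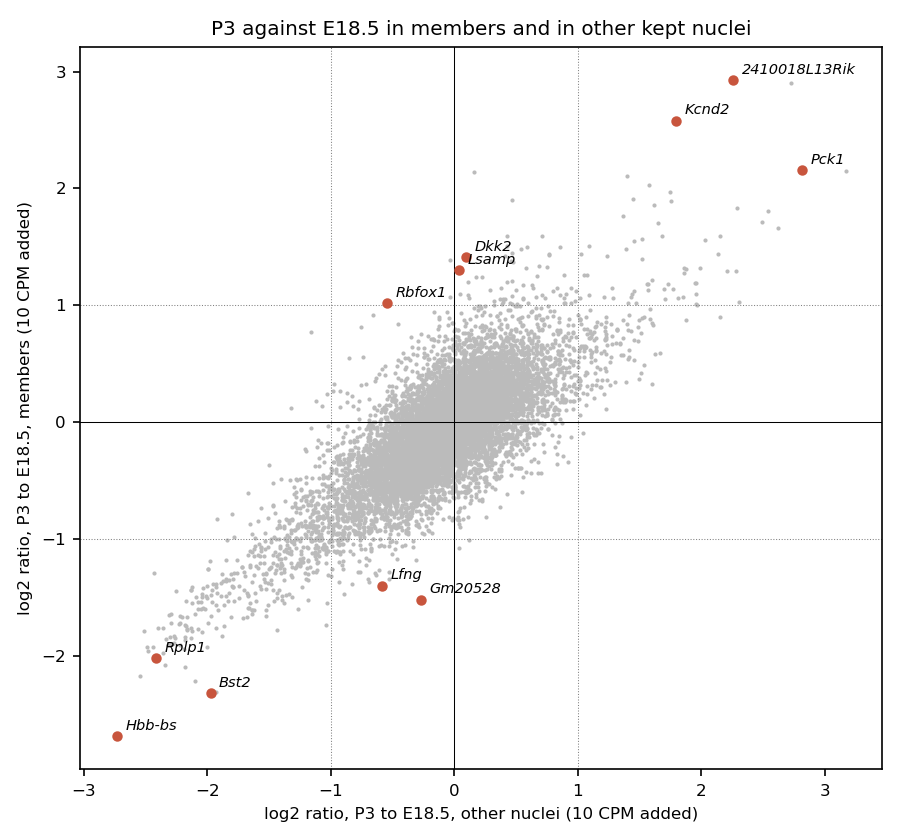
Log2 ratio of P3 to E18.5 in other kept nuclei (horizontal) and in members (vertical), with 10 CPM added, 1 gray point per gene, named genes in red and dotted lines at 2-fold. Hbb-bs, Rplp1, Pck1 and Kcnd2 moved in both groups, while Rbfox1, Lsamp and Dkk2 lie above 2-fold in members only.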

How the data were processed

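Nuclei were isolated from frozen, pooled kidneys with a Dounce homogenizer and profiled with 10x Chromium 3′ chemistry on a NextSeq 2000. The deposited values are UMI counts per gene and barcode, which the authors made with Cell Ranger. Per the file headers the P3 matrix was written by release 5.0.1 and the E18.5 matrix by release 7.0.0, while the submitters' processing notes name 5.0.1 and mm10 for both. Whether intronic reads were counted and how strand was used are not given in the sources used here. The authors removed empty droplets by a test against ambient RNA.

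Of 32285 gene IDs, 32158 (99.61%) matched GENCODE M21. Kept nuclei and members were found by the limits stated in the report. Barcodes above the upper UMI limit (2305 and 1572), below 1000 UMIs (423 and 1233) or above 0.6% mitochondrial UMIs (226 and 395) were left out. Scrublet (expected rate 0.1) marked doublets, which were kept. UMIs were summed per group, and intervals are exact (Poisson, Clopper-Pearson or conditional binomial, 95%). A gene was counted with at least 10 CPM in either group, and past the fold at 2-fold with 10 CPM added to each level. The 11 genes of the rule and mitochondrial genes were not counted, nor the 6 genes that define a comparison set. Named genes were those of the rule and of the lists, and per comparison the 15 highest and 8 lowest ratios at 50 CPM or more. Members were clustered by Leiden on 1500 variable genes, 15 principal components and 15 neighbors at resolution 0.8, after scaling to 4000 UMIs, and leading genes needed 10 UMIs. Some genes of the lists enter the counts and sums but are not reported here. Scripts were tested on simulated data. The members and lists were chosen with earlier results of these data known. In place of the settings above, 12 alternatives were tried, and 2 were added after seeing the data. Python 3.11.15, numpy 2.4.6, scipy 1.17.1, pandas 2.3.3, scanpy 1.11.5, igraph 0.11.9 and matplotlib 3.10.9 were used.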

Additional observations from a re-analysis of the deposited data

Results flagged for a closer look

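Barcodes above the upper UMI limit, which no comparison used, also met the marker rule. There were 229 of 2305 at E18.5 (9.93%, 8.74 to 11.2) and 298 of 1572 at P3 (19.0%), with median UMIs of 7982 and 15159. The doublet caller marked 143 (62.4%) and 196 (65.8%) of them. Their Pax8 levels were 616 and 678 CPM and their Greb1 levels 133 and 94.6 CPM.

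The summed nephron progenitor list moved in opposite directions between the libraries. The P3 to E18.5 ratio was 1.42 (1.35 to 1.49) in members and 0.827 (0.817 to 0.838) in other kept nuclei. The endothelium list did so too, with 0.51 (0.438 to 0.593) in members and 1.24 (1.22 to 1.26) in others. Of the endothelial UMIs in E18.5 members, 30.1% were in cluster 1 (27 nuclei), and without the clusters with markers of other classes the ratio was 0.711 by the narrower and 0.720 by the wider criterion. The progenitor ratio was then 1.33 and 1.2. With 1 library per age neither difference was tested.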

How the results depend on the processing

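Values are given at E18.5 and then at P3, for the share of kept nuclei that were members, the numbers of genes higher and lower in members than in other nuclei, and the ratios of summed renal vesicle and nephron progenitor genes of members to other nuclei, as far as they moved by more than the counting error or, for counts of genes, 1.5 times. With at least 4 markers the shares were 0.584% and 1.13%, 265 and 480 genes were higher, 537 and 809 lower, and the vesicle ratios were 3.37 and 3.59 and the progenitor ratios 1.22 and 2.02. With at least 2 markers these were 11.3% and 14.5%, 44 and 125 higher, 28 and 117 lower, 2.30 and 2.60, and 1.05 and 1.67. With no exclusion gene allowed the shares were 1.70% and 2.80%, the vesicle ratios 3.13 and 2.88 and the E18.5 progenitor ratio 1.21. With the rule applied to thinned nuclei they were 0.241% and 0.463%, 449 and 704 genes higher, 1130 and 1194 lower, 3.46 and 3.60, and 1.03 and 1.72. With no upper UMI limit they were 3.54% and 7.01%, 77 and 94 higher, 60 and 84 lower, 2.63 and 2.30, and 1.16 and 1.66. With 1000 to 6000 UMIs in each library the P3 values were 3.49%, 604 genes lower and a vesicle ratio of 3.62. Without called doublets 245 and 606 genes were lower, the vesicle ratios were 3.21 and 3.43 and the P3 progenitor ratio 2.0. The vesicle ratios were 2.78 and 2.96 with other nuclei weighted to the depth of members, and 3.12 and 3.31 as means of shares per nucleus. With 1 CPM added in place of 10, 217 and 534 genes were higher and 442 and 823 lower. Without the clusters that had markers of other classes raised, an alternative chosen after seeing the data, the shares were 1.66% and 3.49%, 213 and 492 genes were higher, 536 and 938 lower, and the ratios were 3.48 and 3.88, and 1.43 and 2.30. With the podocyte and distal lists added to that criterion, also chosen after seeing the data, these were 1.10% and 2.81%, 238 and 495 higher, 620 and 947 lower, 3.70 and 3.81, and 1.55 and 2.25.

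Between members at P3 and E18.5, the summed vesicle ratio of 1.17 turned to 0.983 with no upper UMI limit, and the cause was not tested. It was 1.24 with at least 4 markers, 1.23 with at least 2, 1.07 with no exclusion gene, 1.23 with the thinned rule, 1.25 with equal UMI limits, 1.21 scaled by the median of gene ratios and 1.25 without the clusters named above. The progenitor ratio of 1.42 was 1.25 with at least 2 markers, 1.34 with no exclusion gene, 1.13 with no upper limit, 1.33 without those clusters and 1.2 with the wider criterion. The P3 to E18.5 ratio of Alk turned from 2.46 to 0.634 and that of Tmem100 moved from 1.04 to 2.60 with the wider criterion, which leaves out E18.5 cluster 2 and P3 cluster 6. The S phase ratio turned from 0.944 to 1.04 there. Genes higher and lower at P3 numbered 329 and 664 with at least 4 markers, 1093 and 1606 with the thinned rule, and 328 and 886 with 1 CPM added. Dropping the minimum level moved no count past 1.5 times. The ratios of Pax8, Cdh6, Greb1, Lama1, Lef1, Uncx, Cdh4 and Rmst to other nuclei stayed above 1 in all 176 recomputed values, between 1.8 and 11.3. Greb1, Rmst, Cdh6 and Lama1 at E18.5 and Rmst, Uncx, Greb1 and Cdh4 at P3 were among the 15 highest genes of that comparison. Several were thus already high in the same data, and the settings reuse overlapping nuclei, so the values are a description. No paired analysis was possible because each age had 1 library. Detection at these depths limits the member counts, since most members rested on exactly 3 markers.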
